A study of Mus musculus with 19 samples.

Results

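The enzymes that turn citrate into fatty acids, lengthen them and place double bonds in them were followed in single mouse blastocysts from oocytes with mutant Padi6 and from Control oocytes. The group holds 10 of the 14173 genes in the deposited table: Slc25a1, Acly, Me1, Aacs, Acaca, Fasn, Elovl6, Scd1, Scd2 and Fads1. They were chosen by symbol along the pathway, with their Padi6-mutant minus Control differences in these same embryos already known. Those differences are therefore given as a description. No p is given for them, their calls in the fit over all genes are only counted beside the share of all genes called, and nothing is read from their direction.

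PADI6 is an oocyte protein of the subcortical maternal complex and the cytoplasmic lattices, which the egg hands to the embryo. Polyadenylated RNA was sequenced from whole embryos at the blastocyst stage, with 1 library per embryo. The Padi6-mutant group has 9 blastocysts, and the Control group has 10. The series text names the allele as P620A and places it in the oocytes, so the mutant embryos are maternal mutants that had reached the blastocyst. Strain, embryo sex, age, litter and the paternal genotype are not given in the sources used here, and the labels name no batch. Of the 20 libraries that the labels say were pooled, 19 are analysed here. Embryos were taken as independent, so p-values may be too small where embryos of a group share a litter. Padi6 itself averaged 6.49 ± 2.16 in Padi6-mutant and 6.53 ± 1.50 in Control embryos (log2 scaled count, SD, n = 9 and 10), and since the allele is an amino acid substitution its transcript level checks no label.

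In the cytosol, fatty acids are built from citrate that SLC25A1 carries out of the mitochondrion. ACLY cleaves that citrate to acetyl-CoA, ACACA carboxylates it to malonyl-CoA, and FASN joins these units into palmitate with reducing power from NADPH, part of which the malic enzyme ME1 supplies. AACS activates acetoacetate in the cytosol, a side entry of carbon. ELOVL6 lengthens palmitate, SCD1 and SCD2 place a double bond in saturated chains, and FADS1 desaturates polyunsaturated chains. In many tissues the SREBP transcription factors, which also drive cholesterol synthesis, raise most of these genes. Blastocysts carry lipid droplets left by the oocyte and also make and burn fatty acids of their own.

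Promoter windows, from 250 bases before to 50 bases after the start, were read from RefSeq (GRCm38.p6) for 7 of the 10 genes. Those 7 genes gave 8 windows, because Me1 has 2. Scd1, Scd2 and Fads1 had no entry. Shown are the windows of the carrier and the lyase that open the pathway and of Fasn, which had the largest difference among the genes with a window. Each is written along the gene's own strand, and capitals mark GGGCGG (bound by SP1) or CCAAT (bound by NF-Y), in either orientation.
Slc25a1 (chr16:17928170-17928469, minus strand): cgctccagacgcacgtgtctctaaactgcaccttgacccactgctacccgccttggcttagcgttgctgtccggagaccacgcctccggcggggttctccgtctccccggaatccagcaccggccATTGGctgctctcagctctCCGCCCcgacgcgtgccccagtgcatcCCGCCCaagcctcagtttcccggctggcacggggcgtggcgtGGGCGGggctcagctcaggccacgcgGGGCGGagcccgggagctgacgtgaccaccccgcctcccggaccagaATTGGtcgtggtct
Acly (chr11:100527951-100528250, minus strand): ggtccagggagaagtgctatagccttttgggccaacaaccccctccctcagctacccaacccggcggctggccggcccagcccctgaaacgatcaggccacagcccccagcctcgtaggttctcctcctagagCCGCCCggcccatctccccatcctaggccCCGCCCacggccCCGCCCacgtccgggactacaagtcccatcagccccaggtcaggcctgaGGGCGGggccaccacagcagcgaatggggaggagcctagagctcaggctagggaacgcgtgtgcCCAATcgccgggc
Fasn (chr11:120824498-120824797, minus strand): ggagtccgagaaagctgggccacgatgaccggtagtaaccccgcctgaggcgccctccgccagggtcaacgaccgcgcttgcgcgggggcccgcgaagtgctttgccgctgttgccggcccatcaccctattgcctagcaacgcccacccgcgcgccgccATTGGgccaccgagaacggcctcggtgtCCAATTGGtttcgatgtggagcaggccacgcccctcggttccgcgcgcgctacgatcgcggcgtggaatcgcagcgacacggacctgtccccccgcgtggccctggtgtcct
GGGCGG stood in 3 of the 8 windows (Slc25a1, Acly and 1 of Me1), against 35.6% of all 32817 RefSeq windows. CCAAT stood in 4 of the 8 (Slc25a1, Acly, Fasn and the other of Me1), against 37.4% of all windows. In Fasn it occurred at positions -90 to -86, -62 to -58 and -59 to -55 from the start, and the last 2 overlap. The sterol-response element, searched as TCACNCCAC on both strands, was found in 0 of the 8 windows and in 1.24% of all windows. TCANNTGA, an E-box form bound by SREBP1, was found in 0 of the 8 and in 8.4% of all. These are matches of letters only.

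Library quality differed between the groups. Genes listed at 0 numbered 113 to 596 in Padi6-mutant (median 203) and 30 to 247 in Control embryos (median 102), and 4 Padi6-mutant libraries, numbers 6, 8, 9 and 10, had more than 400. The rank correlation between transcript length and a gene's deviation from its mean over all libraries ran between -0.42 and -0.09 in Padi6-mutant and between -0.12 and 0.40 in Control libraries. Longer genes thus read lower in the Padi6-mutant libraries relative to shorter ones. Depth could be recovered from the spacing of low values in 8 Padi6-mutant libraries, at 12.1 to 30.2 M counts in the listed genes, and in 5 Control libraries, at 27.9 to 46.2 M counts. The labels state an average of 4.2 M reads, and these figures were not reconciled. Differences in zeros, length and depth move with genotype, and their part in the results was tested only as far as the adjusted fits below show.

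The upstream supply genes were lower in Padi6-mutant embryos, by a mean log2 difference of -1.36 to -1.66, and Fasn by -2.99. All values here are log2(scaled count + 1) as deposited, where the authors scaled every library to the same upper quartile. With limma and Benjamini-Hochberg adjustment over all genes, 10 of the 10 enzymes were lower in Padi6-mutant embryos at an adjusted p under 0.05. That rule called 12.0% of all genes lower and 14.6% higher. The median difference was -1.58 over the 10 genes and -0.10 over all genes. The enzymes were known to be lower when they were chosen, so nothing is read from this count. In a whole-embryo library, fewer cells of a type and less RNA per cell cannot be told apart.

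**Figure D1:**
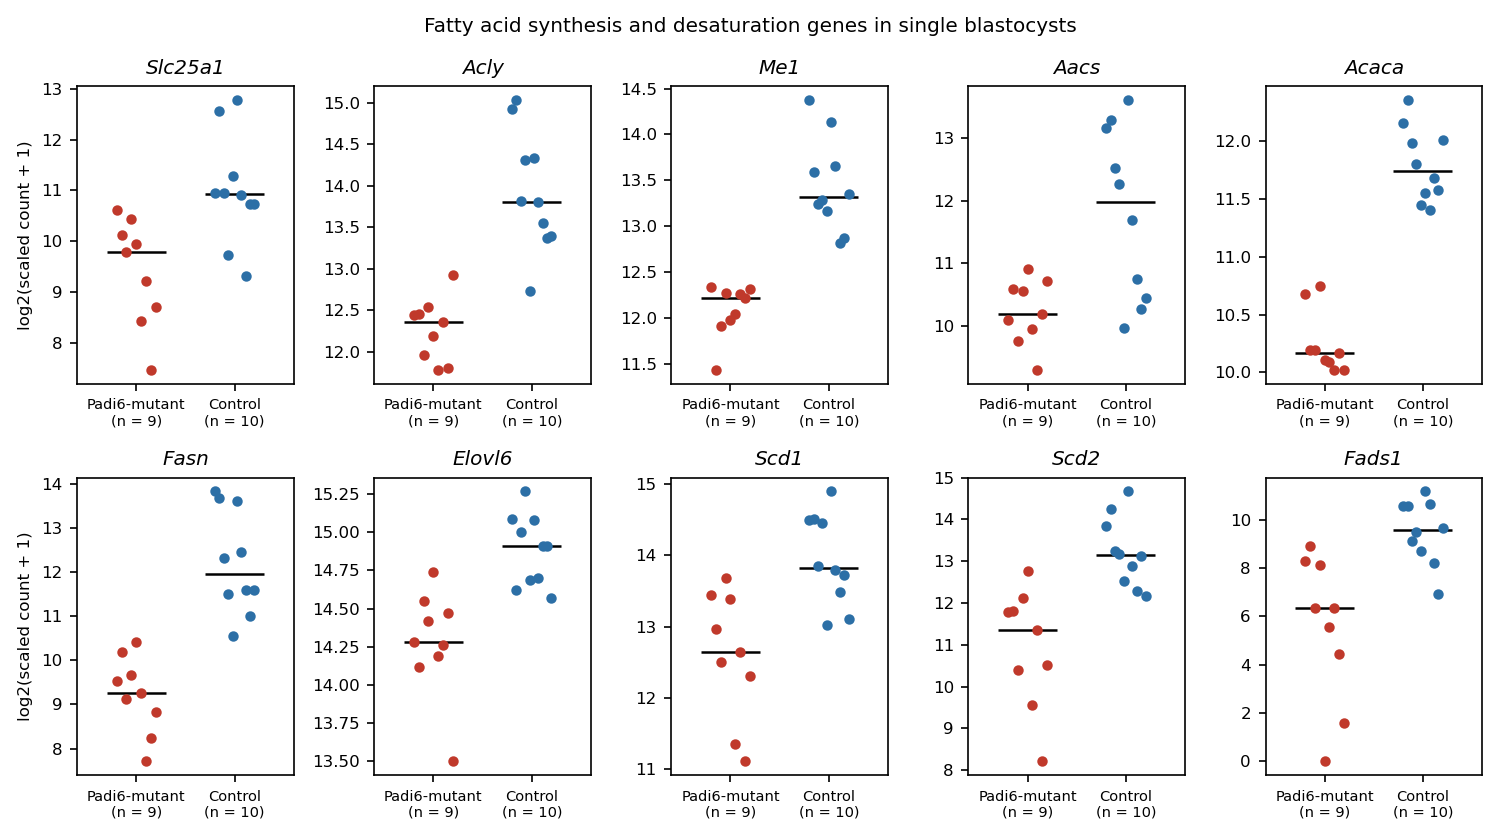
Level of each enzyme in every blastocyst, as log2(scaled count + 1) on the vertical axis, with Padi6-mutant embryos left of Control embryos and a bar at each group median. Me1, Acaca and Fasn have no overlap between the groups, while 4 Control embryos lie within the Padi6-mutant range for Aacs.

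Slc25a1, the mitochondrial citrate carrier, lay between 7.46 and 10.62 in Padi6-mutant embryos (median 9.78) and between 9.31 and 12.79 in Control embryos (median 10.92). Its mean difference was -1.58 (SE 0.43), a level 0.335 of that in Control embryos. The groups overlapped: 4 Padi6-mutant embryos were below every Control embryo, and 2 Control embryos reached no higher than the highest Padi6-mutant one. Acly, ATP citrate lyase, lay between 11.78 and 12.92 in Padi6-mutant (median 12.36) and between 12.73 and 15.04 in Control embryos (median 13.81), a mean difference of -1.66 (SE 0.25). Only Control 5, at 12.73, fell below the highest mutant, number 10 at 12.92.

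Me1, the cytosolic malic enzyme, lay between 11.43 and 12.33 in Padi6-mutant (median 12.21) and between 12.81 and 14.38 in Control embryos (median 13.31). The mean difference was -1.36 (SE 0.19), and the ranges did not overlap. Me1 is uncertain to some degree, since 19.4% of its 75-base words recur in other transcripts of GENCODE M21, 16.4% in Gm7049, which was not analysed here. Aacs, acetoacetyl-CoA synthetase, lay between 9.29 and 10.90 in Padi6-mutant (median 10.18) and between 9.96 and 13.62 in Control embryos (median 11.98), a mean difference of -1.58 (SE 0.43). Its Control embryos were spread over a 12.6-fold range. Controls 5, 8, 9 and 10 lay inside the Padi6-mutant range, and the other 6 Controls lay above it.

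Acaca, the acetyl-CoA carboxylase that commits acetyl-CoA to fatty acids, had the narrowest Control range of the supply genes. It lay between 10.02 and 10.75 in Padi6-mutant (median 10.17) and between 11.40 and 12.36 in Control embryos (median 11.74), and the mean difference was -1.55 (SE 0.16). No embryo of either group fell into the other's range. Its reads could be split with a near copy: 50% of its 75-base words recur in Gm5182, which averaged 5.61 in Padi6-mutant and 6.82 in Control embryos on the same scale.

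Fasn, the fatty acid synthase, read 9.53, 10.18, 9.12, 9.67, 10.42, 9.27, 7.71, 8.24 and 8.84 in Padi6-mutant embryos 2 to 10. In Control embryos 1 to 10 it read 13.83, 13.67, 12.31, 11.49, 10.55, 13.60, 12.44, 11.60, 11.00 and 11.59. Every Padi6-mutant embryo was below every Control embryo, with 10.42 in mutant 6 next to 10.55 in Control 5. The mean difference of -2.99 (SE 0.42) put Fasn at 0.126 of its level in Control embryos. Its Control embryos alone spanned 9.68-fold, with Controls 1, 2 and 6 above the rest. Groups without overlap, the mutants below, were seen for 3 of the 10 enzymes (Me1, Acaca and Fasn) and for 41 of all genes, or 0.289%.

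Elovl6, the elongase acting on palmitate, differed least, with a mean difference of -0.60 (SE 0.15), or 0.658 of its level in Control embryos. It lay between 13.50 and 14.74 in Padi6-mutant (median 14.28) and between 14.57 and 15.27 in Control embryos (median 14.91). The top mutant value lay above 4 Control embryos, while the other 8 mutants lay below every Control.

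Scd1, a stearoyl-CoA desaturase, lay between 11.11 and 13.68 in Padi6-mutant (median 12.64) and between 13.02 and 14.90 in Control embryos (median 13.82), a mean difference of -1.33 (SE 0.32). Scd2, its close relative, read 11.79, 11.82, 10.40, 12.13, 12.77, 9.57, 11.35, 8.21 and 10.53 in Padi6-mutant embryos 2 to 10, and between 12.16 and 14.68 in Control embryos (median 13.15). The Scd2 difference was -2.26 (SE 0.46). Mutants 7 and 9 were the lowest in both desaturases and in Slc25a1, and 3 Control embryos overlapped the mutants in each desaturase. Shared words amounted to 3.24% of Scd1 and 1.8% of Scd2, too few to merge their levels.

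Fads1, a desaturase of polyunsaturated fatty acids, had the largest and least certain difference. It read 8.28, 8.92, 6.36, 8.11, 0.00, 5.55, 6.36, 4.46 and 1.58 in Padi6-mutant embryos 2 to 10, and between 6.92 and 11.18 in Control embryos (median 9.59). The mean difference was -3.99 (SE 0.93), and -3.31 without mutant 6, which is listed at 0. Mutant 10 rests on 1 recovered count and mutants 8 and 9 on 21 and 15, while the 5 Control libraries with a recoverable depth held 83 to 1644 counts. Mutants 2, 3 and 5 overlapped Control embryos 5, 8 and 9.

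**Figure D2:**
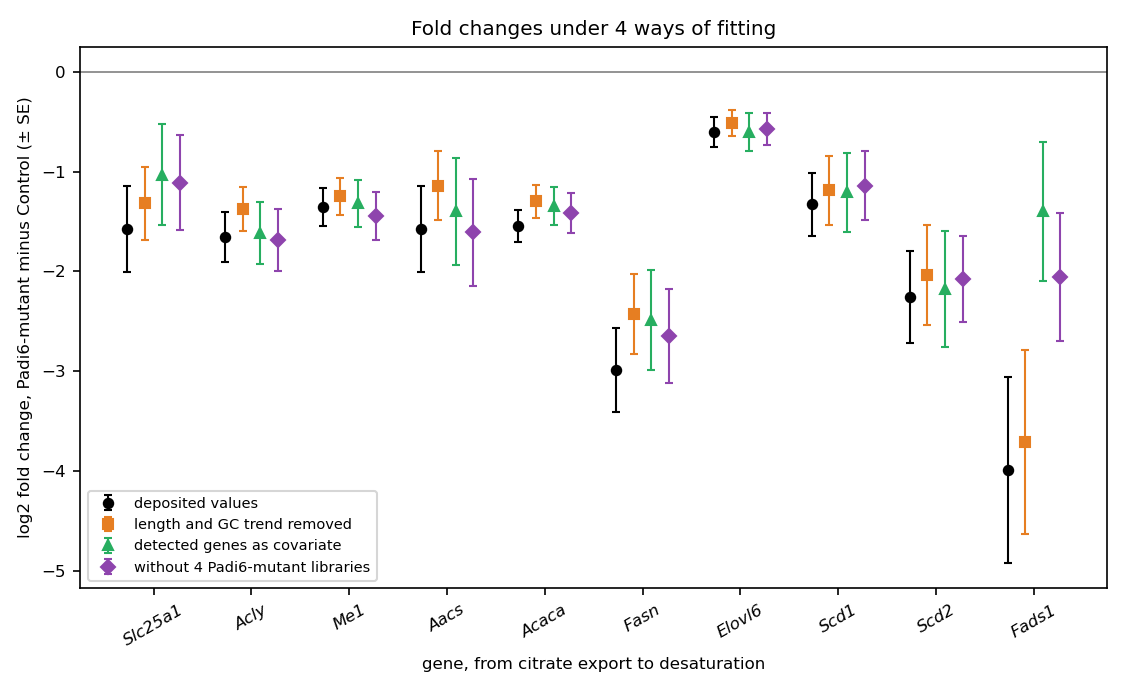
Mean difference in log2(scaled count + 1), Padi6-mutant minus Control, for each enzyme, with the standard error, in the deposited values, with the trend of length and GC content removed, with detected genes as covariate, and without 4 Padi6-mutant libraries. Every point is below 0, from -0.60 for Elovl6 to -3.99 for Fads1 in the deposited values.

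The adjusted fits kept all 10 differences below 0 but not all 10 calls. After the trend with transcript length and GC content was removed from each library, 10 of 10 enzymes were called lower, against 10.2% of the 13357 genes with a length. Fasn was then at -2.43, Acaca at -1.30 and Scd2 at -2.04. With detected genes per library entered as a covariate, 7 of 10 were called, against 3.52% of all genes: Slc25a1 (-1.03), Aacs (-1.40) and Fads1 (-1.40) did not pass. Without the 4 Padi6-mutant libraries that list more than 400 genes at 0, 9 of 10 were called, against 6.64% of all genes, with Slc25a1 at -1.11 not passing and Fads1 at -2.06. These counts too come from the contrast the choice used, and nothing is read from them.

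Per kilobase of transcript, Elovl6 was the most abundant of the enzymes in both groups. It stood at 12.90 ± 0.35 log2 scaled counts per kilobase in Padi6-mutant and 13.50 ± 0.23 in Control embryos (SD, n = 9 and 10). Next in Padi6-mutant embryos came Me1 (10.36), Scd1 (10.33) and Acly (10.21), which did not separate from each other beyond the spread over embryos, and then Slc25a1 (8.68), Aacs (8.53) and Scd2 (8.51), which likewise did not. Acaca (7.07), Fasn (5.89) and Fads1 (3.72) closed the order, with Fasn above Fads1 in 6 of 9 embryos. In Control embryos the order of levels was Elovl6, Acly (11.87), Me1 (11.73), Scd1 (11.66), Scd2 (10.77), Slc25a1 (10.26), Aacs (10.10), Fasn (8.88), Acaca (8.62) and Fads1 (7.72). Acly, Me1 and Scd1 did not separate there either, nor did Scd2, Slc25a1 and Aacs, or Fasn, Acaca and Fads1 as neighbours. With each gene's longest transcript as the length, Elovl6 exceeded Acly in 8 of 10 Control embryos and by 0.53 ± 0.68, which is within the spread.

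The 2 stearoyl-CoA desaturases kept their order in every embryo. Scd1 exceeded Scd2 per kilobase by 1.82 ± 0.64 on the log2 scale in Padi6-mutant embryos (0.78 to 3.07) and by 0.89 ± 0.36 in Control embryos (0.39 to 1.45), in 9 of 9 and 10 of 10 embryos. Per kilobase, Fasn was below Acaca in 8 of 9 Padi6-mutant embryos and above it in 5 of 10 Control embryos. The levels per kilobase were not corrected for the 50% of Acaca's words shared with Gm5182. Nor were they corrected for the length trend of the libraries. These orders follow from the same levels as the choice and carry no test.

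Within a genotype the enzymes can be compared from embryo to embryo, a relation that the difference between groups does not fix. In Control embryos they moved together: 42 of the 45 pairs had a correlation above 0, the mean Pearson r was 0.56, and 13 pairs passed an adjusted p under 0.05, all positive. In Padi6-mutant embryos 33 of 45 pairs were above 0, the mean r was 0.24 and 3 pairs passed. The mean over all gene pairs was 0.01 in Padi6-mutant and 0.00 in Control embryos. In that mean positive and negative r offset each other. The share of other gene pairs passing the same rule is not given here, so the counts of called pairs stand without it. Each pair was tested by permutation (exact in the 9 Padi6-mutant, with 100000 resamples in the 10 Control embryos), two-sided, adjusted over 90 relations. By Spearman's rho 2 of the 3 passed in Padi6-mutant and 9 of the 13 in Control embryos. The difference in r between the genotypes was not tested.

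**Figure D3:**
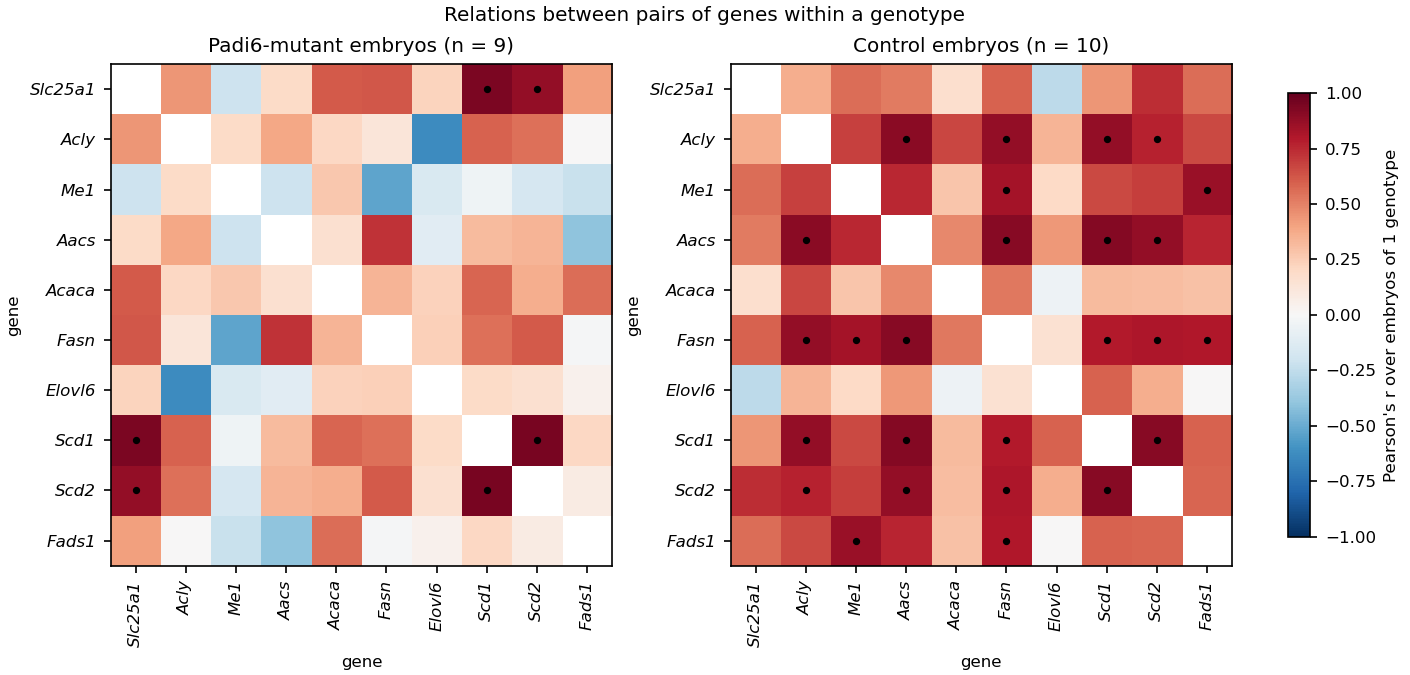
Pearson r between each pair of enzymes across embryos, with Padi6-mutant embryos (n = 9) left of Control embryos (n = 10) and a dot on each called pair. In Padi6-mutant embryos the 3 pairs called by r join Slc25a1, Scd1 and Scd2. In Control embryos the 13 pairs called by r centre on Fasn, Aacs, Acly and the desaturases.

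In Padi6-mutant embryos the called pairs joined the citrate carrier and the stearoyl-CoA desaturases. Scd1 and Scd2 had r = 0.95 and rho = 0.90 (adjusted permutation p 0.00471 and 0.0252), and r = 0.85 without the 2 embryos farthest from the median. Here and for the other pairs, that is the median of the gene named first. Slc25a1 and Scd1 had r = 0.94 and rho = 0.95 (adjusted permutation p 0.00471 and 0.00529), and r = 0.86 without those 2. Slc25a1 and Scd2 had r = 0.88 and rho = 0.80 (adjusted permutation p 0.0169 and 0.0926), and r = 0.60 without them. The last pair thus passed by r and not by rho.

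In Control embryos Fasn had the most partners called by r, 6, and Acly, Aacs, Scd1 and Scd2 had 4 each. By rho, Fasn passed with Acly and Aacs (adjusted permutation p 0.0274 for both). It did not pass by rho with Me1, Scd1, Scd2 or Fads1 (adjusted permutation p 0.0926, 0.0926, 0.186 and 0.104). Aacs and Scd1 had r = 0.92 and rho = 0.95 (adjusted permutation p 0.00882 and 0.0039), and r = 0.94 without the 2 farthest embryos. Aacs and Fasn had r = 0.91 and rho = 0.85 (adjusted permutation p 0.00885 and 0.0274), and r = 0.84 without them. Acly and Aacs had r = 0.90 and rho = 0.95 (adjusted permutation p 0.00742 and 0.0039), and r = 0.89 without them. The relation of the side entry with both the lyase and the synthase thus held without those 2 embryos. That is 1 choice of 2 embryos, set by the first gene of each pair, and it does not cover other choices.

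Scd1 and Scd2 had r = 0.91 and rho = 0.94 in Control embryos (adjusted permutation p 0.00742 and 0.00529), and r = 0.89 without the 2 farthest, so this pair was called in both genotypes. Me1 and Fads1 had r = 0.86 and rho = 0.95 in Control embryos (adjusted permutation p 0.0118 and 0.0039), and r = 0.94 without the 2 farthest. The same pair in Padi6-mutant embryos had r = -0.22. Slc25a1, Acaca and Elovl6 had no called partner in Control embryos in the deposited values. With the length and GC trend removed, Acaca and Fasn passed there at r = 0.80 (adjusted permutation p 0.0376), against 0.53 before. The mean r of Elovl6 with the other enzymes was 0.02 in Padi6-mutant and 0.20 in Control embryos.

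**Figure D4:**
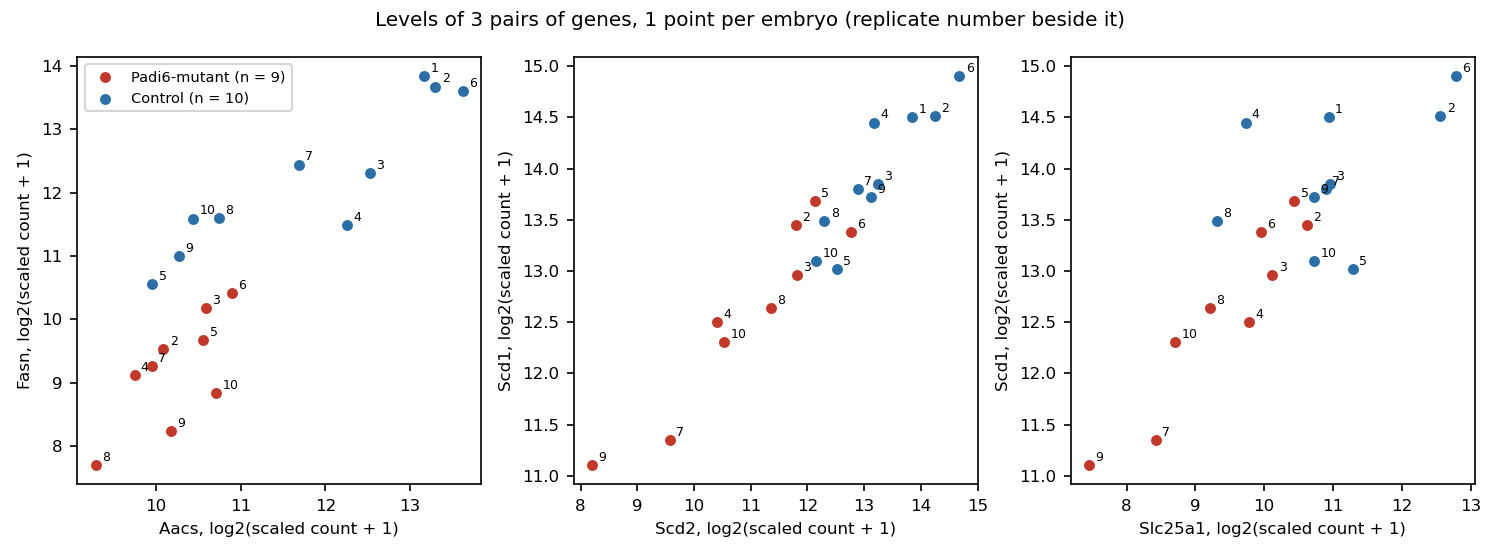
Levels of Fasn against Aacs, Scd1 against Scd2 and Scd1 against Slc25a1 in every embryo, as log2(scaled count + 1) on both axes, with Padi6-mutant embryos in red, Control embryos in blue and replicate numbers beside the points. Scd1 and Scd2 are high in the same embryos in both groups, at r = 0.95 in Padi6-mutant and 0.91 in Control embryos.

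Some embryos were high or low in most of the enzymes. Padi6-mutant embryo 5 was above its group mean in 10 of 10 enzymes, and mutants 7 and 9 were below it in 8 of 10. Controls 1, 2 and 6 were above their group mean in 9 of 10 and were the 3 highest in Fasn, Scd2 and, with 13.17 to 13.62, Aacs. Controls 5, 8 and 9 were below theirs in 9 of 10. Without the 2 farthest embryos of each pair the mean r was 0.23 in Padi6-mutant and 0.38 in Control embryos. The spread itself was above the all-gene median SD (0.61 in Padi6-mutant, 0.70 in Control embryos) for 5 enzymes in Padi6-mutant and 6 in Control embryos. As many of all genes lie above that median as below it. Among genes above the median level the median SD was 0.42 in Padi6-mutant and 0.50 in Control embryos.

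Library measures were set against each enzyme within each genotype, 40 relations in all, and 0 passed after adjustment, with 7 at an unadjusted permutation p under 0.05. The strongest were in Padi6-mutant embryos. Fads1 against genes at 0 had r = -0.86 and rho = -0.70 (adjusted exact permutation p 0.0574 and 0.296), and r = -0.59 without the 2 farthest embryos. Slc25a1 against the length correlation had r = -0.86 and rho = -0.83 (adjusted exact permutation p 0.0574 and 0.271), and r = -0.88 without them. Scd1 and Scd2 had r = -0.75 and -0.70 against that same measure (adjusted exact permutation p 0.248 for both). All 3 called pairs in Padi6-mutant embryos thus join genes with a negative r against the length correlation. In those embryos 9 of the 10 enzymes had that sign. In Control embryos 9 of the 10 had a negative r against genes at 0. Fasn was there at -0.66 and Fads1 at -0.65 (adjusted permutation p 0.248 for both). Against the length correlation only Slc25a1 was negative in Control embryos (-0.32), and Acaca was highest at 0.68 (adjusted permutation p 0.248). The part of library measures in the pair relations was not tested, beyond a correction for transcript length and GC content. Under that correction 3 pairs in Padi6-mutant and 12 in Control embryos were called. With quantile normalization 4 pairs were called in Padi6-mutant embryos, 3 of them positive, and 12 in Control embryos. By Spearman's rho 2 and 7 then passed.

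Across all 19 embryos, each taken as a deviation from its group mean, the 7077 genes above the median level that are no member were ranked by their correlation with the mean of the 10 enzymes. Among the 10 most alike were Slc11a2 (r = 0.87), Tex264 (0.87), Parp1 (0.87), Pgd (0.86), Apeh (0.86), Acat2 (0.85), Cpsf4 (0.85), Dmap1 (0.85) and Fkbp4 (0.85). Pgd encodes an NADPH-making enzyme of the pentose phosphate route and Acat2 the cytosolic thiolase that opens cholesterol synthesis. Genes of cholesterol synthesis made up 7 of the first 100 and 0.297% of the ranked genes, so 7 of 21 of them stood there. Leaving Fads1 with its values near 0 out of the mean, a choice made after its values were seen, put Lss (0.93), Sqle (0.91), Acat2 (0.90) and Fdps (0.86) among the first 10, and 9 of the first 100 were cholesterol genes. The points share their libraries and these r are a description.

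The neighbouring pathways were described in the same way, by list. Over 8 lists of fatty acid genes, which were drawn up with earlier results of these data known, 96 of 109 genes were measured. Of these, 27 were lower and 10 higher in Padi6-mutant embryos by limma, 59 did not pass, and the median difference was -0.32. Over all genes the same rule called 12.0% lower and 14.6% higher, and the median was -0.10. The counts of each list are to be read against those shares. Values below are Padi6-mutant minus Control in log2(scaled count + 1), with limma's adjusted p over all genes.

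**Figure D5:**
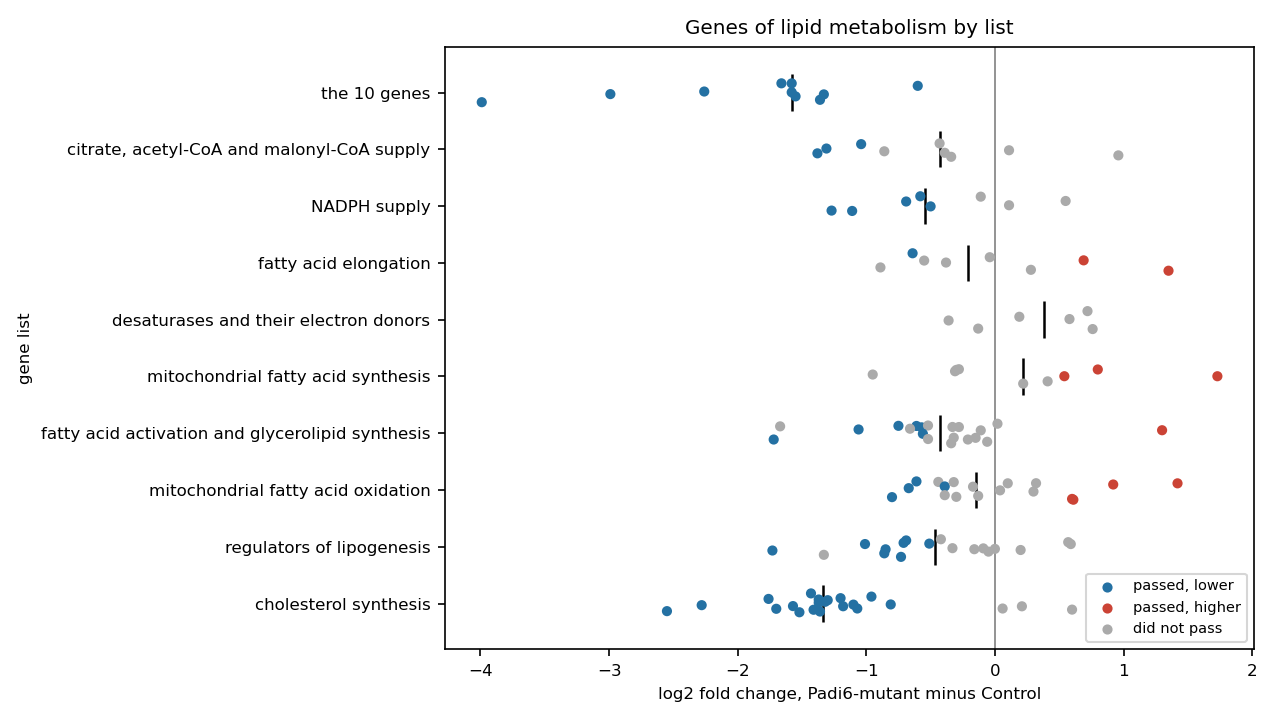
Difference in log2(scaled count + 1), Padi6-mutant minus Control, for every measured gene of each list, with a bar at the list's median, blue for genes called lower, red for genes called higher and grey for the others. The 10 enzymes have a median of -1.58 and cholesterol synthesis -1.34, while mitochondrial fatty acid synthesis has 0.22.

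Of 9 genes listed around the supply of citrate, acetyl-CoA and malonyl-CoA, not all of which make these compounds, 3 were lower and 0 higher. Aco1, the cytosolic aconitase, differed by -1.38 (SE 0.24, adjusted p 0.000152). Acacb, the carboxylase at the mitochondrial surface, differed by -1.31 (SE 0.31, adjusted p 0.00305). Acss2, which makes acetyl-CoA from acetate, differed by -1.04 (SE 0.31, adjusted p 0.0151), and its call ended with detected genes as a covariate (adjusted p 0.116) and without the 4 libraries (0.0631).

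NADPH supply had 5 of 8 genes lower and 0 higher, with a median of -0.54, and 3 to 5 lower with an embryo left out. Pgd was lower by a difference of -1.27 (SE 0.28, adjusted p 0.00194 by limma, and 0.0763 with the covariate). G6pdx, the first enzyme of the pentose phosphate route, differed by -1.11 (adjusted p 0.0324 by limma), Tkt by -0.69 (0.0365), Mthfd1 by -0.58 (0.0138) and Idh1 by -0.50 (0.0319). G6pdx, Tkt and Mthfd1 lost their calls under each of the 3 adjusted fits, while Idh1 kept its call under them and lost it when any 1 of 5 embryos was left out (Padi6-mutant 3, 4 or 9, or Control 4 or 10), with an adjusted p of up to 0.0643.

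Elongation beyond Elovl6 had 1 of 8 genes lower and 2 higher. Of these, Elovl7 was lower (-0.64, adjusted p 0.0093 by limma), and the dehydratases Hacd1 (1.35, 0.0154) and Hacd2 (0.69, 0.0273) were higher. After trend removal 4 genes were lower and 1 higher, and Hacd1 was at 0.61 (adjusted p 0.282). All 3 calls ended with the covariate, at adjusted p 0.22, 0.091 and 0.163. Without the 4 libraries those of Elovl7 (0.213) and Hacd2 (0.0734) ended, and that of Hacd2 also without Padi6-mutant 2, Control 1 or Control 3. Elovl5, which lengthens polyunsaturated chains, differed by 0.28 (adjusted p 0.206 by limma). The other desaturases and their electron donors had 0 of 6 genes called. Degs1, which desaturates the sphingolipid backbone, differed by 0.19 (SE 0.23, adjusted p 0.583) and Cyb5r3, the cytochrome b5 reductase, by -0.36 (SE 0.25, adjusted p 0.286). Scd3 averaged 5.59 ± 1.14 in Padi6-mutant and 4.87 ± 1.26 in Control embryos, a difference of 0.72 (adjusted p 0.394 by limma).

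The mitochondrial fatty acid synthesis system, a separate set of enzymes that feeds lipoic acid, had 3 of 9 genes higher and 0 lower. Ndufab1, its acyl carrier protein, averaged 12.64 ± 0.26 in Padi6-mutant and 10.92 ± 0.47 in Control embryos, a difference of 1.73 (SE 0.18, adjusted p 4.49e-07 by limma), and kept its call under the 3 adjusted fits. Cbr4, a subunit of its reductase, differed by 0.80 (adjusted p 0.00448, and 0.0792 with the covariate). Lias, the lipoyl synthase, differed by 0.54 (adjusted p 0.0445 by limma). Its call ended under the 3 adjusted fits and when any 1 of 12 embryos was left out (Padi6-mutant 2, 3, 4, 5, 6, 7 or 9, or Control 1, 4, 6, 7 or 8), with an adjusted p of up to 0.0873.

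Activation of fatty acids and glycerolipid synthesis had 6 of 20 genes lower and 1 higher. The lower genes numbered 3 after trend removal, 1 with the covariate and 3 without the 4 libraries. Acsl4, an acyl-CoA synthetase for polyunsaturated chains, differed by -1.72 (SE 0.44, adjusted p 0.00543, and 0.0602 with the covariate). Gpat3, an acyltransferase of the first step of glycerolipid synthesis, differed by -0.61 (adjusted p 0.0145, and 0.107 with the covariate). Agpat5, an acyltransferase of the next step, was higher by 1.30 (SE 0.22, adjusted p 0.000159 by limma) and kept its call under the 3 adjusted fits.

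Mitochondrial fatty acid oxidation had 4 of 18 genes lower and 4 higher, with a median of -0.15. Higher were Etfb (1.42, SE 0.23, adjusted p 9.29e-05), Eci1 (0.92, adjusted p 0.00522), Acadm (0.61, adjusted p 0.00122) and Etfa (0.60, adjusted p 0.0043). Etfa and Etfb form the electron transfer flavoprotein and Acadm is the medium-chain acyl-CoA dehydrogenase. Lower were Cpt1a (-0.80, adjusted p 0.0149 by limma), the carnitine transferase of the entry step, Acads (-0.67, 0.0129), Acadvl (-0.61, 0.0209) and Acadl (-0.39, 0.0234), the dehydrogenases of short, very long and long chains. Etfa lost its call after trend removal (0.21, adjusted p 0.132), with the covariate (0.105) and without the 4 libraries (0.0531), while Etfb, Eci1 and Acadm kept theirs. The lower genes numbered 2 after trend removal, 0 with the covariate, 3 without the 4 libraries and 0 with the replicate block.

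Among regulators of lipogenesis 8 of 18 were lower and 0 higher. With an embryo left out 4 to 8 were lower, and with the covariate 2. Srebf2, which encodes the SREBP best known for cholesterol genes, averaged 10.92 ± 1.08 in Padi6-mutant and 12.65 ± 0.56 in Control embryos, a difference of -1.73 (SE 0.35, adjusted p 0.000759 by limma). Srebf1, the SREBP best known for fatty acid genes, differed by -0.85 (SE 0.28, adjusted p 0.0267 by limma), and not past the threshold after trend removal (0.269), with the covariate (0.227) or without the 4 libraries (0.131). Mbtps1, the protease that cuts SREBPs, differed by -0.73 (adjusted p 0.00146, and 0.0564 with the covariate). Nr1h2, the liver X receptor beta, differed by -1.01 (adjusted p 0.00337, and 0.0756 with the covariate). Scap, which escorts SREBPs, differed by -0.71 (adjusted p 0.046) and Insig1, which holds them back, by -0.86 (adjusted p 0.0329), both by limma. Scap lost its call in the 3 adjusted fits and Insig1 after trend removal (0.0731).

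Cholesterol synthesis, the sister pathway from the same acetyl-CoA, had 19 of 22 genes lower and 0 higher, with a median of -1.34. Sqle, squalene epoxidase, differed by -2.55 (SE 0.46, adjusted p 0.000278) and Hmgcs1, an early synthase of the route, by -1.41 (SE 0.22, adjusted p 6.62e-05). Both kept their calls in the 3 adjusted fits. Over the list, 17 genes were lower after trend removal, 10 with the covariate and 12 without the 4 libraries.

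Markers of the cell lineages were set beside the enzymes, against all-gene shares of 12.0% lower and 14.6% higher. Of 11 inner cell mass markers 5 were lower and 0 higher. Their summed level ran from 66139 to 110357 scaled counts in Padi6-mutant and from 91485 to 182280 in Control embryos. Tfcp2l1 weighed most in this sum, with the highest mean of the list, 15.36 in Padi6-mutant and 16.15 in Control embryos. Lower inner cell mass markers numbered 4 after trend removal, 1 with the covariate and 3 without the 4 libraries. Of 12 primitive endoderm markers 7 were lower and 0 higher, with sums of 31562 to 46422 in Padi6-mutant and 30862 to 96769 in Control embryos. Dab2, which was not called, is on both this list and the trophectoderm list. It averaged 13.93 in Padi6-mutant and 13.70 in Control embryos and is part of both sums. Lower primitive endoderm markers numbered 3 after trend removal, 1 with the covariate and 4 without the 4 libraries. Of 13 trophectoderm markers 1 was lower and 2 were higher, with sums of 143735 to 577919 in Padi6-mutant and 273158 to 455809 in Control embryos. The highest means of that list were those of Krt8 (16.90 in Padi6-mutant, 17.16 in Control) and Krt18 (16.28 and 16.33). Trophectoderm markers had 1 lower and 0 higher after trend removal, and 0 lower and 1 higher with the covariate. The marker lower after trend removal was Tead4, at -1.16 (adjusted p 0.00311 by limma). In the deposited values Tead4 differed by -0.35 (adjusted p 0.301 by limma). Of the inner cell mass markers, Pou5f1 differed by -1.26 (adjusted p 0.00158 by limma), Tfcp2l1 by -0.79 (0.000574) and Klf2 by -1.09 (0.0201). Klf2 lost its call after trend removal (adjusted p 0.117), with the covariate (0.623) and without the 4 libraries (0.363), and Pou5f1 with the covariate (0.071). Of the primitive endoderm markers, Lamc1 averaged 11.34 in Padi6-mutant and 12.34 in Control embryos (adjusted p 0.000974 by limma), and the differences were for Lamb1 -1.46 (0.00194) and for Cubn -1.97 (0.00829). Lamb1 and Cubn lost their calls with the covariate (adjusted p 0.0749 and 0.116). Among trophectoderm genes Tspan8 differed by 1.48 (adjusted p 0.00156 by limma), Plac1 by 1.85 (0.0175) and Krt7 by -0.77 (0.0476). After trend removal Tspan8 (adjusted p 0.0864) and Plac1 (0.237) were not past the threshold, and Plac1 did not pass with the covariate either (0.0815). The Krt7 call ended in the 3 adjusted fits and when any 1 of 12 embryos was left out (Padi6-mutant 2, 3, 6, 7 or 8, or Control 1, 3, 4, 6, 7, 8 or 10), with an adjusted p of up to 0.0987. Nanog averaged 13.39 in Padi6-mutant and 13.38 in Control embryos and Cdx2, a trophectoderm regulator, averaged 13.85 in Padi6-mutant and 14.20 in Control embryos. Sox2 and Gata4 were each listed at 0 in at least 1 Padi6-mutant embryo and in no Control embryo, and Amn in at least 1 embryo of each group. The part of lineage makeup in the enzymes' levels was not tested. Of 12 cumulus and granulosa cell markers only Star was measured, at 12 to 344 scaled counts in Padi6-mutant and 41 to 382 in Control embryos.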

How the data were processed

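Per the submitters' processing notes, trimming used Trim Galore 0.4.4 and alignment HISAT2 2.1.0, with GRCm39 and mm39 named. The counting tool and gene annotation are not given in the sources used here. The deposited table holds log2 values of 14173 genes in 19 libraries. Taken back from the log2 scale, each value came out whole to within 1.96e-07 and was taken as 1 more than a scaled count, and the upper quartile was 2322 in every library. No gene was dropped for low values, since each exceeded 0 in 9 or more libraries, and all 10 enzymes are in the table.

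Groups were compared on the deposited log2 values with limma 3.58.1 in R 4.3.3 (two-sided, Benjamini-Hochberg adjustment over all genes, threshold 0.05), and within-group relations by permutation in Python 3.11.15 with numpy 2.4.6. The scripts were tested on simulated data. The enzymes and lists were chosen with earlier results of these data known. Named genes were the 10 enzymes, Padi6, the 10 genes most like the enzymes and, of each list, up to 3 called genes with the lowest adjusted p or, where none was called, the 2 of highest mean. Others named were chosen after their values were seen, and some genes that the rule names are not reported here. Lengths and GC content of transcripts came from GENCODE M21, an older build, for 13357 genes (94.2%), and their trend was removed by lowess with a span of 0.3. Alternatives were quantile and median-of-ratios scaling, a pseudocount of 10, a filter at the median level, the number of detected genes as covariate, removal of libraries over 400 zeros, a replicate block, and each embryo left out. No 2 libraries had a Spearman's rho above 0.972, and none was taken as a duplicate.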

Additional observations from a re-analysis of the deposited data

Results flagged for a closer look

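Among the 20 groups looked at (10 enzymes in each genotype), 2 held a sample far from the others by Dixon's criterion, where chance gives about 1 in 20. Me1 was at 11.43 in Padi6-mutant embryo 3, against 11.91 in the next lowest mutant, a gap of 0.534 of the group's range. Elovl6 was at 13.50 in Padi6-mutant embryo 10, against 14.12 in the next lowest mutant, a gap of 0.501 of the range. Mutant 10 is also 1 of the 4 libraries that list more than 400 genes at 0.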

How the results depend on the processing

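All 279 recomputed differences of the 10 enzymes stayed below 0, and 275 kept their call. The other 4 were Slc25a1, Aacs and Fads1 with the covariate, and Slc25a1 without the 4 libraries. Leaving out each embryo kept 10 of 10 called. These fits share most of their embryos and the contrast that the choice used, so nothing is read from these counts. Fatty acid list genes called lower numbered 27, against 6 with the covariate and 14 without the 4 libraries, and 20 to 29 with an embryo left out. Those called higher numbered 10, against 5 with the covariate, and 8 to 11 with an embryo left out. Over all genes 1697 were lower, against 499 with the covariate and 941 without the 4 libraries, and 1224 to 2026 with an embryo left out. Higher were 2068, against 1308 with the covariate and 1242 among genes above the median level, where fewer genes were tested, and 1811 to 2262 with an embryo left out. Called pairs numbered 2 to 7 in Padi6-mutant embryos, with 7 without mutant 10, and 8 to 12 in Control embryos, with 8 without Control 1 or Control 6, while the mean r ran from 0.17 to 0.28 in Padi6-mutant and from 0.52 to 0.6 in Control embryos. Except where stated, the cause was not tested. Cholesterol genes among the 100 most alike numbered 7, and 9 with Fads1 left out of the mean.

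Replicate numbers did not pair embryos: same-numbered embryos had correlations of -0.07 to 0.15, 1 of 9 pairs was over 0.1, and 1 of 9 correlated best with its own number. With a replicate block all 10 enzymes were called, 13 list genes were lower, and 987 of all genes were lower. With the block and the length and GC trend removed, 11 list genes were lower and 6 higher, and 876 of all genes were lower and 1003 higher. Fads1 had 0 to 29 recovered counts in 5 Padi6-mutant libraries, among them the deepest of those with a recovered depth (30.2 M counts, 15 of them in Fads1).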
